A study of Mus musculus with 6 samples.

Results

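The nuclear genes for the subunits of the mitochondrial oxidative phosphorylation complexes were compared between mouse liver libraries labelled wild type (WT) and libraries labelled knockout (KO). The library labels name neither a gene nor a cell type. The knockout is taken here to be a hepatocyte-specific one of HIF-2α, the oxygen-regulated transcription factor encoded by Epas1. Members were chosen by symbol, as protein-coding genes named Ndufa, Ndufb, Ndufc, Ndufs or Ndufv with a number, Sdha to Sdhd, Uqcr, Cox4 to Cox8 or Atp5. They were 84 of the 54600 identifiers in the deposited table, 37 of them named for complex I, 4 for complex II, 8 for complex III, 18 for complex IV and 17 for complex V. A further 12 genes with matching names were left out because they are not annotated as protein-coding, and 11 of these are processed pseudogenes. Choice by symbol placed Ndufa4 with complex I, although its protein is now counted as a subunit of complex IV. It also brought in Cox7a2l, which encodes a factor that joins complexes III and IV into supercomplexes, and Atp5s, named coupling factor B.

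The liver RNA came from mice after 16 weeks of high-fat feeding, with 3 libraries for each label. The diet was shared by both labels, so every value below describes liver after high-fat feeding. The study asked what HIF-2α does in the progression of metabolic dysfunction-associated steatotic liver disease. Strain, age, sex, the Cre driver and the deleted exons are not given in the sources used here, nor is it stated that each library came from a separate animal, so p-values measure only the spread between these libraries.

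Oxidative phosphorylation passes electrons from NADH and succinate through complexes I to IV to oxygen, and complex V, the ATP synthase, uses the proton gradient that results. Complexes I, III, IV and V mix subunits encoded in the nucleus with a few encoded in mitochondrial DNA, whereas all subunits of complex II are nuclear. Hepatocytes are rich in mitochondria, and hypoxia-inducible factors are known in other cells to switch some subunit isoforms, of which Cox4i2 and Ndufa4l2 are the best known.

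Values are TPM, a transcript abundance unit corrected for transcript length, so that levels can be compared between genes, and brought to a common total per library. Differences between labels are KO minus WT on the scale log2(TPM + 1), tested with limma over the 11440 genes that reached 1 TPM in at least 3 of the 6 libraries. The libraries held 11013 to 11708 genes at 1 TPM or more, and the 20 most abundant genes took 41.2% to 46.9% of all TPM. The targeted gene was checked first. Under the WT label Epas1 stood at 23.8, 26.0 and 21.01 TPM, and under the KO label at 26.6, 35.1 and 29.4 TPM, given here and below in the order of replicates 1 to 3. It was not lower under the KO label, with a difference of 0.34 (SE 0.15, limma unadjusted p = 0.050, adjusted p = 0.993). In the deposited TPM all 3 KO values lay above the 3 WT values, as in 8.23% of all tested genes. Rescaling by median ratios divides WT replicate 2 by 0.983 and KO replicate 1 by 1.06. For Epas1 KO replicate 1 then lies below WT replicate 2. With the replicate number as a block, its unadjusted limma p was 0.017, and 6.18% of all tested genes were below 0.05. The check thus did not show a loss of Epas1 RNA, and the groups are called by their labels throughout. The table gives a single value per gene, so a deletion of some exons, and Epas1 RNA from cells other than hepatocytes, cannot be told apart from it. All 6 hepatocyte markers were above 1 TPM in every library, and their summed level was 46616 to 55332 TPM under the WT label and 50942 to 69680 TPM under the KO label.

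The subunit genes were among the more abundant transcripts of these livers. The median member of complex I had a mean of 109 TPM under the WT label and 116 TPM under the KO label. The corresponding medians were 185 and 194 TPM for complex II, 340 and 350 TPM for complex III, 272 and 290 TPM for the 12 tested members of complex IV (170 and 184 TPM over all 18), and 263 and 277 TPM for complex V. Within complex I the levels ran from 502 TPM for Ndufa4, as the mean of all 6 libraries, down to 1.89 TPM for its relative Ndufa4l2. In complex II they ran only from 135 TPM (Sdhc) to 201 TPM (Sdha), and in complex III from 147 TPM (Uqcrc2) to 578 TPM (Uqcrq). In complex IV the highest member was Cox4i1 at 535 TPM, and in complex V it was Atp5b, the catalytic beta subunit, at 627 TPM.

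**Figure D1:**
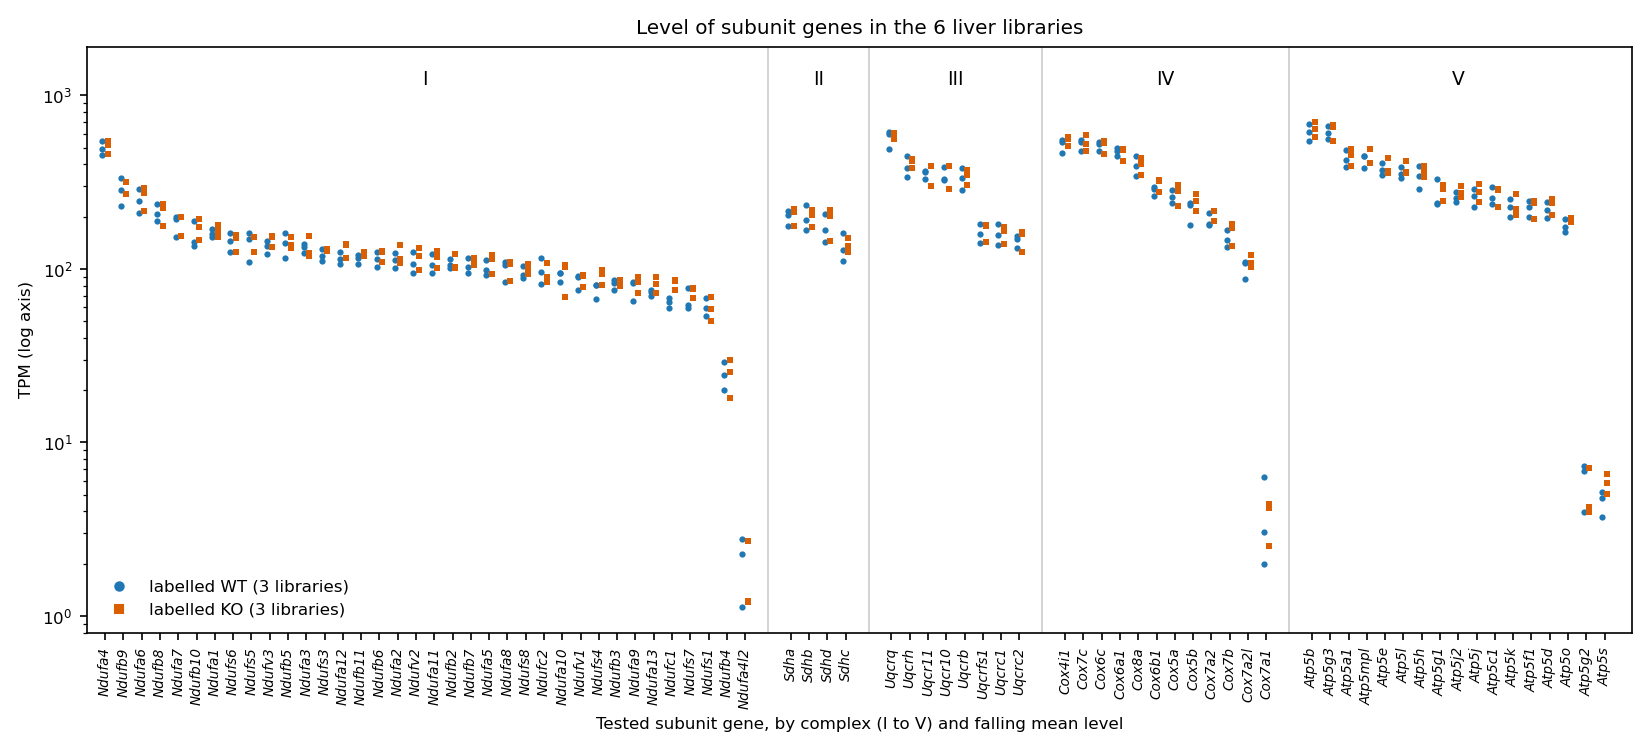
TPM on a log axis for 77 of the 78 tested subunit genes in each library, ordered by complex and by falling mean, with circles for libraries labelled WT and squares for those labelled KO. Of the 77 genes drawn, 73 have a mean of at least 20 TPM, mostly with intermixed labels, and Ndufa4l2, Cox7a1, Atp5g2 and Atp5s lie below 10 TPM.

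No subunit gene passed an adjusted p of 0.05. The smallest adjusted p among the 78 tested members was 0.993, and over all tested genes 1 of 11440 passed, which is 0.00874%. At an unadjusted p below 0.05 there was 1 member, Ndufc1, against 3.15% of all tested genes. The differences ran from -0.21 for Atp5g2 to 0.36 for Ndufc1, with a median of 0.05, and 68 of the 78 lay above 0, although only 10 did so once the libraries were rescaled by median ratios. Of all tested genes, 74.5% lay above 0, and their median difference was 0.09, which that rescaling moved by -0.11. Relative to the median of all tested genes, 22 members lay above it and 56 below it. With quantile normalization 32 members lay above 0, and 36 did once the 20 top genes and the mitochondrially encoded genes were taken out of the total. The median of all tested genes was -0.01 with median ratios, -0.002 with quantile normalization and 0.04 with those genes taken out. The share of all tested genes above 0 is not given for these alternatives, so the members' counts have no share beside them there. Without WT replicates 1, 2 and 3 in turn the count above 0 was 70, 76 and 28, and without KO replicates 1, 2 and 3 it was 42, 47 and 76. The members' median was 0.07, 0.12 and -0.02 without each WT replicate and 0.01, 0.02 and 0.13 without each KO replicate. The sign of the members' median thus changed with the scaling and, among single libraries, without WT replicate 3. There the medians of all 5 complexes were also below 0. The median of all tested genes moved as well. It was 0.14, 0.11 and 0.04 without each WT replicate and 0.08, 0.07 and 0.13 without each KO replicate. The members' median minus it was -0.04 in the main fit, -0.06 with median ratios and -0.02 with quantile normalization. Without each WT replicate this gap was -0.07, 0.02 and -0.06, and without each KO replicate -0.06, -0.05 and 0.0002. With the low-value filter dropped it was 0.01.

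Each 95% limma interval describes a single gene in these libraries, on the scaling of the main fit. It does not cover the choice of scaling, where median ratios moved the median of all tested genes by -0.11. For 72 of the 78 tested members the 95% limma interval lay within 1.5-fold either way, compared with 57.7% of all tested genes. Abundant genes are measured more tightly. Among genes averaging 20 TPM or more the interval lay within 1.5-fold for 72 of 74 members and for 70.2% of 3018 genes. This floor does not match levels, and the median tested member stood at 159 TPM under the WT label. The gap between these shares thus cannot be read as a trait of the members. The members whose interval reached past 1.5-fold were Ndufc1, Sdhd and the scarce transcripts Ndufa4l2, Cox7a1, Atp5g2 and Atp5s. The 3 KO values all lay above the 3 WT values for 1 tested member, Ndufc1, compared with 8.23% of all tested genes, and all lay below for 0 members, compared with 0.857%.

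**Figure D2:**
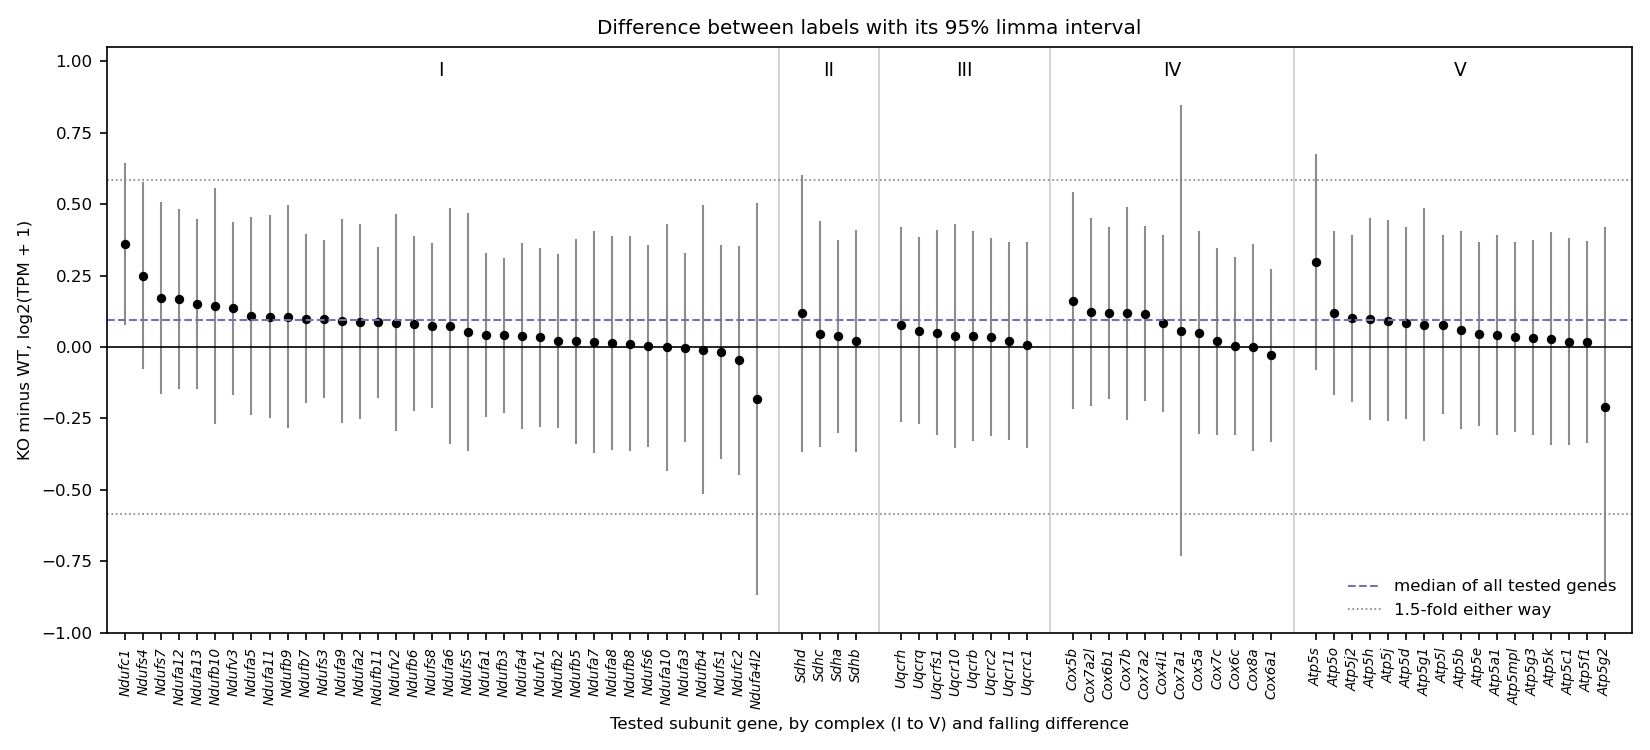
Difference KO minus WT in log2(TPM + 1) for 77 of the 78 tested subunit genes, by complex and falling difference, with 95% limma intervals as bars, the median of all tested genes (0.09) as a dashed line and 1.5-fold either way as dotted lines. Every interval drawn except that of Ndufc1 spans 0, and 71 stay inside the dotted lines.

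Complex I, the NADH dehydrogenase, had a median difference of 0.07 over its 37 members, with 30 above 0 and 7 below, but of -0.05 with 7 above 0 after median-ratio scaling. Ndufc1 encodes a small accessory subunit of the membrane arm and lies on chromosome 3 of GRCm38 at chr3:51404677-51408988, on the minus strand. Ndufc1 levels were 64.1, 59.3 and 67.7 TPM for the WT label and 86.1, 75.1 and 85.1 TPM for the KO label. In the deposited TPM the labels did not overlap, and the difference was 0.36 (SE 0.12, 95% interval 0.08 to 0.64, limma adjusted p = 0.993). Median-ratio scaling divides WT replicate 3 by 0.876 and KO replicate 2 by 1.10. For Ndufc1 KO replicate 2 then lies below WT replicate 3, so the lack of overlap depends on the scaling. Of the 50-base stretches of its annotated transcript, 5.25% also occur in transcripts of other genes.

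Ndufs4 encodes an accessory subunit of the matrix arm of complex I, whose loss causes mitochondrial disease. Its levels were 80.9, 81.2 and 66.8 TPM under the WT label and 98.0, 93.8 and 80.9 TPM under the KO label. The lowest KO value lay within the WT range, and the difference was 0.25 (SE 0.14, limma adjusted p = 0.993). Ndufa12, an accessory subunit of the same arm, stood at 115, 126 and 107 TPM against 139, 137 and 115 TPM, a difference of 0.17 (SE 0.13). With the replicate number of the labels as a block, 3 of the 78 members had an unadjusted limma p below 0.05 (Ndufc1, Ndufs4 and Atp5s), against 6.18% of all tested genes, and the smallest adjusted p among members was 0.724.

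The core of complex I, which carries the flavin and the iron-sulfur clusters, showed differences between -0.02 and 0.17 in the members named here. Ndufv1, which holds the flavin, stood at 89.3, 91.5 and 75.7 TPM under the WT label and at 91.5, 91.9 and 79.0 TPM under the KO label. Ndufs1, the largest core subunit, stood at 59.5, 67.6 and 53.2 TPM against 59.0, 69.2 and 50.3 TPM. In both genes replicate 3 was the lowest library of each label. Ndufs7, which carries the last iron-sulfur cluster, stood at 61.9, 77.5 and 59.3 TPM against 68.3, 76.9 and 77.8 TPM, and WT replicate 2 lay within the KO range. The other complex I members, leaving out those named here and below, had differences between -0.05 and 0.15.

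Complex II, succinate dehydrogenase, also serves the tricarboxylic acid cycle. Its 4 members had differences of 0.02 to 0.12 (median 0.04), none of which remained above 0 after median-ratio scaling (median -0.08). Sdha, the flavoprotein that oxidizes succinate, stood at 204, 214 and 176 TPM under the WT label and at 221, 212 and 178 TPM under the KO label. Sdhb, the iron-sulfur subunit, stood at 192, 235 and 167 TPM against 206, 219 and 175 TPM. For both, the lowest value of each label was replicate 3 and the ranges overlapped almost whole. Sdhc, a membrane anchor that binds heme and quinone with its partner Sdhd, stood at 129, 162 and 111 TPM against 136, 150 and 125 TPM. Sdhd stood at 167, 207 and 143 TPM against 202, 217 and 144 TPM, and its interval of -0.36 to 0.60 was the widest in the complex.

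Complex III, which passes electrons from ubiquinol to cytochrome c, had 8 members with differences of 0.01 to 0.08 (median 0.04), all of them below 0 after median-ratio scaling (median -0.09). All 8 intervals lay within 1.5-fold either way. Uqcrfs1, the Rieske iron-sulfur protein, stood at 159, 181 and 140 TPM under the WT label and at 178, 177 and 143 TPM under the KO label. Uqcrc1, a core protein, stood at 157, 182 and 138 TPM against 165, 174 and 139 TPM. The label ranges of both genes covered nearly the same span. The most abundant member, Uqcrq, a small ubiquinone-binding subunit, stood at 603, 611 and 491 TPM against 610, 597 and 560 TPM. Uqcrh, the hinge protein, had the largest difference of the complex, with 384, 447 and 339 TPM against 429, 420 and 380 TPM.

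Complex IV, cytochrome c oxidase, has its catalytic core encoded in mitochondrial DNA, and the nuclear members surround it. Of its 18 members 12 were tested, with a median difference of 0.07 and 10 above 0, or a median of -0.04 and 2 above 0 after median-ratio scaling. The other 6 were too scarce to be tested and are described with the isoforms. Cox5b, the zinc-binding subunit, had the largest difference, with 241, 235 and 180 TPM under the WT label and 246, 269 and 216 TPM under the KO label (difference 0.16, SE 0.16). Cox6b1, which joins the monomers of the dimer, stood at 297, 289 and 263 TPM against 327, 320 and 278 TPM. Cox7b stood at 147, 167 and 134 TPM against 173, 181 and 135 TPM. In each of these genes a KO value lay within the WT range. The supercomplex factor Cox7a2l stood at 108, 110 and 87.2 TPM against 109, 120 and 103 TPM.

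Complex V had 17 members with a median difference of 0.06 and 16 above 0, but a median of -0.06 with 1 above 0 after median-ratio scaling. Atp5b stood at 615, 685 and 544 TPM under the WT label and at 639, 702 and 578 TPM under the KO label. Its partner in the catalytic head, the alpha subunit Atp5a1, stood at 427, 487 and 385 TPM against 453, 489 and 394 TPM. In both genes the order of the libraries within a label was the same, with replicate 2 highest and replicate 3 lowest. Atp5o, which encodes the stalk subunit that confers oligomycin sensitivity, stood at 174, 195 and 164 TPM against 195, 196 and 186 TPM. Its transcript shares 50.3% of its 50-base stretches with transcripts of other annotated identifiers, so its level is uncertain. Among these is another identifier that also has the symbol Atp5o. Atp5j2, a small subunit of the membrane part, stood at 258, 277 and 241 TPM against 299, 274 and 260 TPM, with overlapping labels.

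Atp5s, a scarce transcript, stood at 5.19, 3.70 and 4.79 TPM under the WT label and at 6.56, 5.02 and 5.87 TPM under the KO label. KO replicate 2 lay below WT replicate 1, and the difference was 0.30 (95% interval -0.08 to 0.67, limma adjusted p = 0.993). No 50-base stretch of the Atp5s transcript occurs in another annotated gene. Atp5s and Ndufc1 were the members with the largest differences in their complexes, and both lay above the all-gene median under median-ratio scaling as well. Atp5s was then at 0.19 (SE 0.17, limma unadjusted p = 0.28) and Ndufc1 at 0.24 (SE 0.14, limma unadjusted p = 0.13).

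Several subunits exist as isoforms made in different tissues, and in these livers a single isoform supplied nearly all the transcripts of most such families. Cox4i1, the isoform found in most tissues, stood at 550, 542 and 468 TPM under the WT label and at 562, 575 and 513 TPM under the KO label. Cox4i2, the isoform of lung and of hypoxic cells, was listed at 0, 0.103 and 0 TPM against 0.747, 0.488 and 0.376 TPM. All 3 KO values of Cox4i2 lay above the WT values, yet every value was under 1 TPM and Cox4i2 never exceeded 0.133% of the summed level of the pair. When the filter on low values was dropped, Cox4i2 had a limma adjusted p of 0.792, and 2 of 82 members (Cox4i2 and Ndufc1) then had an unadjusted p below 0.05, compared with 3.29% of 23500 genes. The depth behind a TPM value is unknown, so a value of 0 says only that the gene is listed at 0.

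Ndufa4 stood at 492, 544 and 450 TPM under the WT label and at 547, 520 and 459 TPM under the KO label. Ndufa4l2, a known target of hypoxia-inducible factors that lowers complex I activity, stood at 2.79, 1.13 and 2.28 TPM against 1.21, 2.72 and 1.22 TPM. The labels overlapped across the whole range of Ndufa4l2, and its difference of -0.18 had a 95% limma interval of -0.86 to 0.50. Ndufa4l2 made up 0.425% of the pair under the WT label (SD 0.191, n = 3) and 0.335% under the KO label (SD 0.161, n = 3).

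The isoforms typical of heart and skeletal muscle were scarce. Cox6a1, the liver form, stood at 476, 495 and 447 TPM under the WT label and at 491, 483 and 418 TPM under the KO label. Its muscle counterpart Cox6a2 stood at 0.111, 0.229 and 0.243 TPM against 0.138, 0.271 and 0 TPM. Cox7a2 stood at 181, 210 and 179 TPM against 214, 216 and 188 TPM. The muscle form Cox7a1 stood at 2.001, 6.30 and 3.05 TPM against 4.21, 4.44 and 2.52 TPM, or 1.89% (SD 0.923, n = 3) and 1.76% (SD 0.377, n = 3) of the pair. Muscle markers were also low, with a sum of 0.534 to 1.76 TPM under the WT label and 0 to 0.228 TPM under the KO label, and with Myh4 and Ckm listed at 0 in all libraries. Cox8a stood at 393, 447 and 343 TPM against 433, 401 and 346 TPM. Cox8b, the muscle and brown fat form, was listed above 0 only in WT replicate 2, at 0.477 TPM. The isoforms best known from testis were scarce as well: Cox6b2 lay between 0 and 0.501 TPM, and Cox7b2 and Cox8c were listed at 0 in all 6 libraries.

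Subunit c of the ATP synthase, which builds the rotating ring, is made from genes that encode the same mature protein. Atp5g3 stood at 608, 668 and 557 TPM under the WT label and at 659, 673 and 546 TPM under the KO label. Atp5g1 stood at 239, 330 and 237 TPM against 290, 306 and 247 TPM. Atp5g3 supplied 69.2% (SD 2.55, n = 3) and 68.6% (SD 0.461, n = 3) of the summed level of the family, and Atp5g1 supplied 30.1% (SD 2.45) and 30.8% (SD 0.326). Atp5g2 stood at 3.96, 7.31 and 6.89 TPM against 3.95, 7.14 and 4.22 TPM, under 1% of the family in each library. It had the lowest difference of any tested member, -0.21, with a 95% limma interval of -0.83 to 0.42. The annotated transcript of Atp5g2 shares 14.8% of its 50-base stretches with other genes, that of Atp5g1 11.6% and that of Atp5g3 none.

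**Figure D3:**
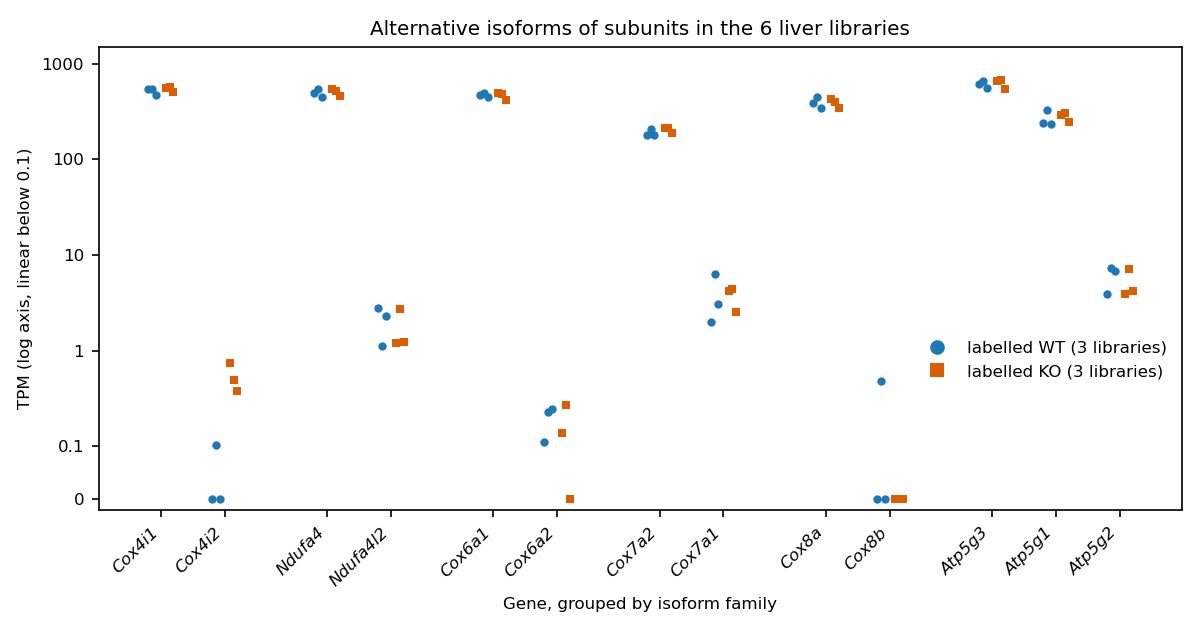
TPM of the alternative isoforms of subunits in each library, on an axis that is logarithmic above 0.1 TPM and linear below, with circles for libraries labelled WT and squares for those labelled KO. In each family a main isoform lies above 100 TPM, and Cox4i2 is the only scarce isoform whose KO values all lie above its WT values.

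The members varied together between libraries of a single label. WT replicate 3 was the lowest library of its label for 73 of the 78 tested members, and KO replicate 3 for 71. WT replicate 2 was the highest of its label for 60 members, and KO replicates 1 and 2 for 38 each. The median deviation of the members from their 6-library means was -0.02, 0.10 and -0.19 under the WT label and 0.12, 0.12 and -0.14 under the KO label. Over all tested genes the same deviations were 0.04, -0.02 and -0.16, and 0.07, 0.09 and -0.03. In WT replicate 3 the members thus lay low together with the median gene, whereas in KO replicate 3 they lay low while the median gene was near its mean. Complex II spread the most, from -0.26 in WT replicate 3 to 0.24 in WT replicate 2.

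**Figure D4:**
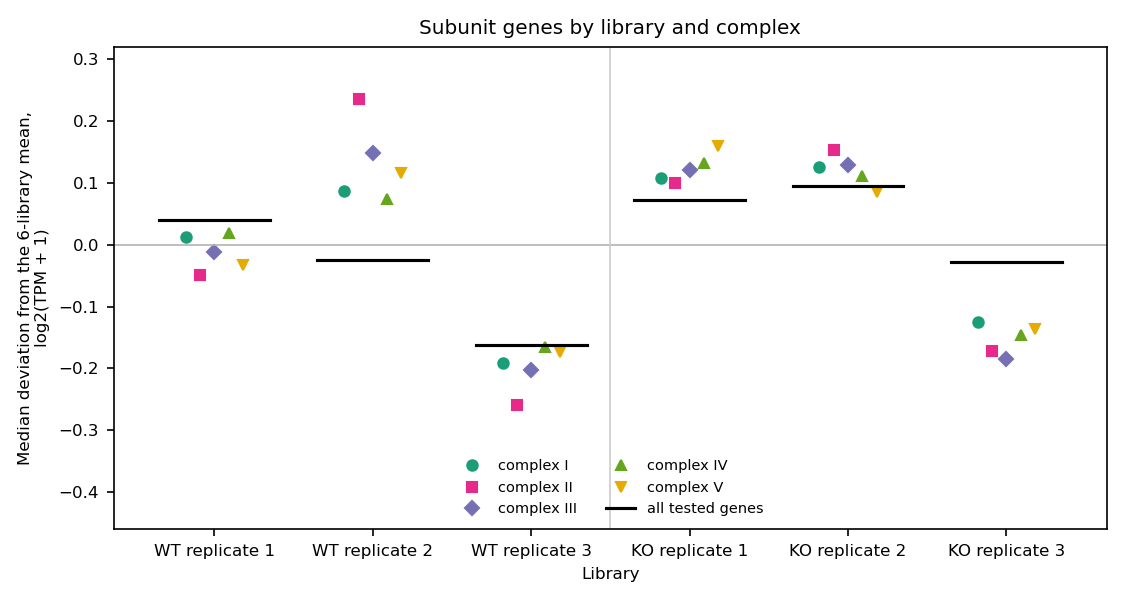
Median deviation of the tested members of each complex from their 6-library mean, in log2(TPM + 1), for each library, with a bar for the median of all tested genes. All 5 complexes lie below -0.1 in replicate 3 of both labels and above 0.05 in WT replicate 2, KO replicate 1 and KO replicate 2.

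The summed level of all members took 1.67%, 1.81% and 1.48% of all TPM in the libraries labelled WT and 1.83%, 1.79% and 1.54% in those labelled KO, or 1.65% (SD 0.168, n = 3) and 1.72% (SD 0.159, n = 3). The 2 labels differed by less than the spread within each. Mitochondrially encoded subunits took 18.6%, 24.3% and 20.8% of TPM against 21.7%, 21.5% and 16.0%, so that the summed nuclear level per mitochondrially encoded level was 0.0899, 0.0745 and 0.0711 against 0.0840, 0.0835 and 0.0958. The highest ratio was in KO replicate 3, whose mitochondrially encoded share was the lowest. The labels overlapped in the ratio, at 0.0785 (SD 0.0100, n = 3) and 0.0878 (SD 0.00695, n = 3). In whole-tissue RNA, fewer cells of a type and less RNA per cell cannot be told apart. The summed level of stellate cell markers was 111 to 137 TPM under the WT label and 136 to 152 TPM under the KO label, that of cholangiocyte markers 24.9 to 35.3 and 34.9 to 56.2 TPM, and that of red cell markers 441 to 728 and 557 to 1224 TPM. Endothelial markers summed to 98.0 to 106 and 105 to 116 TPM, macrophage markers to 192 to 268 and 241 to 258 TPM, and lymphocyte markers to 0.702 to 2.68 and 1.16 to 2.23 TPM. Fat cell markers summed to 23.2, 1.15 and 0.385 TPM under the WT label and 22.3, 2.47 and 0 TPM under the KO label, high in replicate 1 of both, with Adipoq, Lep and Ucp1 listed at 0 in all libraries. All listed macrophage, endothelial and red cell markers reached 1 TPM in every library. Only 4 of 6 stellate, 1 of 5 cholangiocyte, 0 of 5 lymphocyte and 0 of 5 fat cell markers did, so those sums may rest on few genes. The part of these cells in the members' values was not tested.

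When libraries of the same replicate number were set against each other, 69 of the 78 members were higher under the KO label for number 1, 38 for number 2 and 57 for number 3. The median differences of the members were 0.14, -0.01 and 0.06, beside 0.03, 0.12 and 0.13 over all tested genes. The direction of the members' median thus differed between the numbers. In all 3 comparisons 27 of the 78 members were higher under the KO label, beside 26.9% of all tested genes, and Atp5g2 alone was lower, beside 4.29% of all tested genes.

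Many subunit genes are known targets of NRF1, a factor that binds the palindrome around GCGCATGCG, and of ETS family factors such as GABP. RefSeq promoters of GRCm38.p6, each with 250 bases before the start site and 50 after it, were matched for 68 of the 84 members. The letters GCGCATGCG occurred on either strand in 8 of the 68 members (11.8%) and in 2.61% of 17492 protein-coding genes. The letters ACCGGAAG, bound by ETS factors, occurred in 6 members (8.82%) and in 3.40% of coding genes, and TCAAGGTCA, bound by ERR alpha, in 2 members (2.94%) and in 0.377%. ACGTG, the core of hypoxia response elements, occurred in 18 members (26.5%) and in 23.2% of coding genes. These are matches of letters, which say nothing on binding in these livers. The stretches around an NRF1 core that begins before the start site are shown for 7 members. NRF1 was chosen as the factor best known for these genes. In Uqcr11 the core begins at position -5 and spans the start site. Each stretch is given 5′ to 3′ on the strand of the gene, with the core on either strand in capitals.
Atp5g2, chr15:102671060-102671109, minus strand: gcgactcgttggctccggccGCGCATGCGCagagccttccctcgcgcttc
Atp5k, chr5:108434420-108434469, minus strand: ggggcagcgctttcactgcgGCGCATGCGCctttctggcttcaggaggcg
Atp5l, chr9:44920955-44920992, minus strand: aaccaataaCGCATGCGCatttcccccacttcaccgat
Cox6a1, chr5:115349091-115349140, minus strand: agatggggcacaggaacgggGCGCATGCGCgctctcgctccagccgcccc
Ndufa11, chr17:56717682-56717731, plus strand: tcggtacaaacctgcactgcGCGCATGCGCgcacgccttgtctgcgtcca
Ndufa8, chr2:36049339-36049367, minus strand: cgcttgcgcgtcgctggagaCGCATGCGC
Uqcr11, chr10:80406818-80406846, minus strand: aggtggagcgatcgccttcaCGCATGCGC
These 7 members had differences from -0.21 for Atp5g2 to 0.11 for Ndufa11, none of which lay above 0 after median-ratio scaling. Of all 78 tested members only 10 did so under that scaling, so this is no trait of the 7. In Uqcrc1, the eighth member with the core, the letters lay after the start site.

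Other genes of the pathway were examined through chosen lists of genes that the symbols do not cover. The members and these lists together do not hold every gene of the pathway, and Ndufab1 is in neither. Of the assembly factors, which build the complexes without staying in them, 46 of 48 were tested, with 0 called, 0 at an unadjusted p below 0.05 and a median difference of 0.03, or -0.08 after median-ratio scaling. With a library left out, that median ran from -0.04 (without KO replicate 1) to 0.09 (without KO replicate 3). The assembly factor Ndufaf8 stood at 16.1, 18.9 and 18.7 TPM under the WT label and at 16.3, 13.8 and 11.01 TPM under the KO label (difference -0.38, SE 0.16, limma adjusted p = 0.993). Only KO replicate 1 lay within its WT range. Coa7, next in p, went the other way (difference 0.31, SE 0.23), and in this list 31 genes lay above 0 and 15 below. Timmdc1 (difference 0.13) was its only gene whose labels did not overlap, with KO higher, as in 8.23% of all tested genes. Of 12 tested electron carriers and subunits named otherwise, 9 lay above 0 and 3 below, with a median of 0.07, or -0.05 after median-ratio scaling. In this list 1 of the 12 had an unadjusted limma p below 0.05, beside 3.15% of all tested genes. That gene was Dhodh, which feeds electrons from pyrimidine synthesis to ubiquinone, at 3.84, 3.20 and 3.20 TPM against 6.75, 6.15 and 4.09 TPM (difference 0.57, SE 0.19, limma adjusted p = 0.993). Its labels did not overlap, as in 8.23% of all tested genes with KO higher.

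The 13 mitochondrially encoded subunits had a median difference of -0.05, with 3 above 0 and 10 below, and of -0.17 after median-ratio scaling. With a library left out, that median ran from -0.15 (without WT replicate 1) to 0.06 (without WT replicate 2), and it was also above 0 without KO replicate 3. Their largest difference was that of mt-Nd3, a complex I subunit, at 4950, 8321 and 6846 TPM against 6165, 5425 and 4816 TPM (difference -0.27, SE 0.23). The labels overlapped, and WT replicate 2 was the highest library. The median difference of 15 tested regulators of these genes was 0.10, or -0.00014 after median-ratio scaling and -0.03 with quantile normalization. Of the 15, 11 lay above 0 and 4 below, and 0 had an unadjusted limma p below 0.05. With the replicate block 2 of the 15, Polrmt and Myc, had one, beside 6.18% of all tested genes. Polrmt, the mitochondrial RNA polymerase, stood at 4.49, 3.53 and 3.53 TPM against 6.22, 4.35 and 5.30 TPM (difference 0.37, SE 0.16, limma adjusted p = 0.993). Myc, a growth-promoting transcription factor, stood at 0.858, 1.45 and 1.49 TPM against 1.36, 9.85 and 3.0 TPM (difference 1.06, SE 0.50, limma adjusted p = 0.993), with KO replicate 2 far above the other libraries and KO replicate 1 within the WT range. Yy1, a factor that binds many subunit promoters, stood at 13.6, 14.4 and 11.1 TPM against 16.5, 13.8 and 15.7 TPM, with overlapping labels. Ppargc1a, the coactivator best known for driving subunit genes, stood at 1.13, 3.11 and 2.54 TPM against 3.21, 2.06 and 1.94 TPM, and Nrf1 at 3.04, 4.42 and 4.003 TPM against 3.77, 3.90 and 4.75 TPM. Both overlapped between the labels, and both were picked with their values in view. The 14 enzymes of the tricarboxylic acid cycle were split 7 above and 7 below 0, with a median of 0.0018, or -0.12 after median-ratio scaling. Of 21 genes of mitochondrial mass and import, 18 lay above 0, with a median of 0.08, or -0.04 after that scaling. Neither list had a gene at an unadjusted limma p below 0.05.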

How the data were processed

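RNA-seq was done on 6 liver libraries. The authors deposited a single table of TPM values for 54600 identifiers. The tools named are HISAT2, featureCounts, fastp, limma and DESeq2 and the build is mm10, per the submitters' processing notes, and versions, roles, strand setting and treatment of shared reads are not given in the sources used here. TPM keep no depth, so no counting error can be given, and reads from overlapping genes or close copies may be misplaced. Of the 84 members, 29 have exons that overlap another gene and 39 share no 50-base stretch with another annotated gene. Atp5l (84.8%) and Atp5o (50.3%) share over 50%, Atp5o in part with another identifier of the same symbol.

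Symbols and coordinates came from GENCODE M21 (GRCm38, the same build as mm10), which named 51492 of 54323 Ensembl identifiers. Where a symbol had several rows, that of highest mean TPM was used. Genes reaching 1 TPM in 3 or more of the 6 libraries entered the fit with limma 3.58.1 (R 4.3.3, variance trend, two-sided, Benjamini-Hochberg over 11440 genes) on log2(TPM + 1), 3 libraries labelled KO against 3 labelled WT. The code was tested on simulated data. The members, gene lists and tests were chosen with earlier results of these data known. Genes named with all 6 values were the 3 of smallest p in each complex, the most abundant of each complex, the Sdh genes, core subunits, isoform families and members whose labels did not overlap; of each other list, up to 3 of smallest p. A single member's own values are not reported here, though it is in all counts and medians.

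Libraries correlated at 0.909 to 0.922 (Spearman) and none was a copy of another. Deviations from the label means correlated at 0.157, 0.408 and 0.381 between libraries of the same replicate number and at -0.370 to 0.0260 between other numbers. The labels do not say that the numbers pair animals, and the fit with that block was an alternative. The other alternatives were the pseudocount, the filter, the scaling, the variance trend, the sum of identifiers and leaving out each library.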

Additional observations from a re-analysis of the deposited data

How the results depend on the processing

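No member was called under any of the 18 alternatives run, and the smallest adjusted p among members was 0.724, in the fit with the replicate block. The count of members at an unadjusted limma p below 0.05 was 1 in the fit as reported. It was 3 with the replicate block, 2 with no filter on low values, 0 with median-ratio scaling and 0 with quantile normalization, and 0 to 1 when a library was left out, the 0 arising without KO replicate 1, KO replicate 3 or WT replicate 2. The median difference of complex I was 0.07 as reported and -0.049 with median-ratio scaling, with or without the replicate block. That of the assembly factors was 0.03 as reported, -0.084 with median-ratio scaling, with or without the block, and -0.069 with quantile normalization. By construction, these scalings bring the median of all tested genes from 0.09 to -0.01 and 0.00. Of the 34 tested genes that the naming rule chose, 21 changed sign with median-ratio scaling, 12 with quantile normalization, 11 without the most abundant genes and 15 without WT replicate 3, and 0 were called. The pseudocount, the variance trend and the sum of identifiers changed no sign among them. The list of mitochondrially encoded subunits has no value where those genes were removed. The unknown depth limits most the members under 10 TPM.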
